A study of Mus musculus with 10 samples.

Results

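Imprinted genes are transcribed from mainly the maternally or mainly the paternally inherited copy. The 48 protein-coding genes described here were taken from a list of known mouse imprinted genes and are 48 of the 35427 genes to which reads could be assigned. They were grouped into 19 imprinted clusters and by the allele usually given as transcribed. By this grouping 21 are paternally expressed, 22 maternally expressed and 5 (Gnas, Blcap, Grb10, Ddc and Inpp5f) isoform-dependent, where the allele depends on the isoform or tissue. Genes of the first groups can also depend on the tissue, such as Ube3a, whose paternal allele is silenced in neurons. The allele transcribed in these ESC lines was not measured. Of the 48 genes, 39 reached 20 reads in 1 or more of the lines and were tested, among 14105 genes that met this minimum. These were 18 paternally expressed genes, 16 maternally expressed genes and all 5 isoform-dependent genes.

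RNA was sequenced from 10 male mouse embryonic stem cell (ESC) lines in 3 genotypes of Tdg: 3 wild-type lines (Tdg+/+), 3 heterozygous knockout lines (Tdg+/-) and 4 homozygous knockout lines (Tdg-/-). TDG is a DNA glycosylase that excises the oxidized cytosines 5fC and 5caC, the late intermediates of active DNA demethylation. All lines carry the label C57BL/6 and came from matings of Tdg+/- males with Tdg+/- females, so the germ cells behind every line, wild type included, were made by heterozygous parents. The lines were derived on mitotically inactivated feeder cells and then kept without feeders, on gelatin in serum-free medium with 2i (2 kinase inhibitors) and LIF, which holds ESCs in a naive state. Each line was 1 library with 31095285 to 39916039 reads in genes. Which mating a line came from is not in the labels, nor from which parent a Tdg+/- line had its knockout allele. There were fewer matings than lines, so some lines share parents. The p values treat all lines as independent and rest on the variation among separately derived lines only. The deposited values add up the reads of both alleles, so they show how much RNA a gene gave and not which parental copy it came from.

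An imprint is in most cases DNA methylation that is laid down in only the egg or only the sperm at a differentially methylated region. Such methylation is kept in the embryo through the genome-wide loss of methylation before implantation. The zinc finger proteins ZFP57 and ZFP445 and their partner TRIM28 hold the mark, which in turn sets which allele of the neighbouring genes is silent. ESCs are known to lose imprints in culture, and lines grown in 2i have low DNA methylation, so that imprinted genes are commonly looked at when ESC lines are compared. The question here is whether imprinted genes differ with the number of functional Tdg alleles, and how far they differ between lines of 1 genotype.

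Promoter sequence is shown for 4 imprinted genes, chosen after their values were seen: Plagl1 and Slc38a4, which passed a test below, Nnat, and Grb10, which has a large range between lines and lies on chromosome 11. RefSeq promoter windows (GRCm38.p6, 250 bases before to 50 bases after the start) were counted for 39 of the 48 genes. Impact was not among them, and the shares given below describe these 39 genes only. The stretches below are the 250 bases before the start, written 5′ to 3′ on the strand of the gene. Where a gene had several windows, the one nearest to the start of its most abundant transcript was taken. Capitals mark TGCCGC, the core of the motif that ZFP57 binds when it is methylated, or its complement GCGGCA.
Plagl1 (chr10:13090582-13090831, plus strand): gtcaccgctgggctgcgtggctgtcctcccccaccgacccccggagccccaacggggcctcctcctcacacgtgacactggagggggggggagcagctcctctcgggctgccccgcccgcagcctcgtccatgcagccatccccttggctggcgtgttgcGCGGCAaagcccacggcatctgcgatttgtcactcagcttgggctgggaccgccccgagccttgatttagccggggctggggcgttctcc
Slc38a4 (chr15:97020360-97020609, minus strand): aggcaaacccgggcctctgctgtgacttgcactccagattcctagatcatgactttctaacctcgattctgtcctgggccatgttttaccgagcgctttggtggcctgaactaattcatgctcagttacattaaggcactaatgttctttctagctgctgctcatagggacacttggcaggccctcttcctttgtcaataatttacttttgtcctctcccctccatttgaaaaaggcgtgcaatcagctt
Nnat (chr2:157559828-157560077, plus strand): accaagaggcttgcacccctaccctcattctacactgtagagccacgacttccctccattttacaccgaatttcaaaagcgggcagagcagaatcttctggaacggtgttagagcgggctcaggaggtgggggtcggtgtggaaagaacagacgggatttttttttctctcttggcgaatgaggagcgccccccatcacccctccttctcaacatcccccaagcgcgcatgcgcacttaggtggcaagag
Grb10 (chr11:12037421-12037670, minus strand): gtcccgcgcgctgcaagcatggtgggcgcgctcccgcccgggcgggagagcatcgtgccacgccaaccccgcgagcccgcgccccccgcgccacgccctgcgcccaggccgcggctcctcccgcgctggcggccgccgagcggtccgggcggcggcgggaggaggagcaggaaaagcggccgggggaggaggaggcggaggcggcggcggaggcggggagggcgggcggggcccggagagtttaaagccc
The Plagl1 stretch held 19 CpG dinucleotides and 1 copy of the motif, and the Grb10 stretch held 40 CpGs. The windows of Grb10 and Nnat each held 1 copy of the motif, in both cases in the 50 bases after the start, which are not printed. The 3 windows of Slc38a4 held 5 CpGs each and no copy, and the start of the one shown lies 408 bases from that of the most abundant transcript. Searched on both strands, the motif was present in a window of 14 of the 39 genes (35.9%), 7 of 17 paternally expressed, 6 of 17 maternally expressed and 1 of 5 isoform-dependent. It was present for 13.1% of all 27025 genes with a window. The motif contains a CpG, and the windows of the imprinted genes had a median of 15 CpGs against 7 in all 32851 windows. A match of these letters is a description and not evidence that ZFP57 binds there.

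The knockout was visible in the targeted gene. Tdg was at 86.5, 91.2 and 93.2 CPM (counts scaled to the size of the library, after TMM normalization) in the Tdg+/+ lines, at 40.4, 41.9 and 45.9 CPM in the Tdg+/- lines and at 7.76, 10.6, 10.3 and 8.50 CPM in the Tdg-/- lines. Markers of naive ESCs, among them Pou5f1 and Nanog, summed to 3430 to 3970 CPM. Markers of other cell types that such cultures could hold were far lower, with 9.41 to 62.0 CPM for feeder fibroblasts, 2.09 to 3.83 CPM for primitive endoderm and 8.98 to 44.9 CPM for primed epiblast. Trophoblast markers summed to 69.2 to 95.0 CPM and neural markers to 53.0 to 105 CPM. The sum of the 4 primed epiblast markers was 9.67 to 18 CPM in Tdg+/-, 21.9 to 38.5 CPM in Tdg-/- and 8.98 to 44.9 CPM in Tdg+/+ lines. Otx2, with 237 to 1404 reads per line, made up most of this sum. It was called higher in Tdg-/- than in Tdg+/- lines (log2 fold change 1.09, adjusted p = 0.0415 from edgeR), but was at 0.002 (SE 0.46) against Tdg+/+. Pou3f1 had 16 to 39 reads and a log2 fold change of 0.005 (SE 0.33) in Tdg-/- against Tdg+/-, and Fgf5 and Sox3 were not tested. The part of such cells in the results below was not tested, and in bulk RNA fewer cells of a type and less RNA per cell cannot be told apart. Tdg+/+ line 1 and Tdg-/- line 1 stood apart from the other lines of their genotypes. The counts of Tdg-/- line 1 differed from those of the other 3 Tdg-/- lines by 87.4 to 144 chi-square units per gene, while those 3 differed from each other by 19.2 to 27.6. For Tdg+/+ line 1 the values were 54.5 and 72.2, against 20.9 between the other two, and for Tdg+/- line 1 they were 42.7 and 58.2, against 27.0. In Tdg+/+ line 1 the genes of chromosome 16, which carries none of the 48 genes, were raised by a median of 0.37 on the log2 scale over the median of all lines.

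The 48 genes spanned a wide range of abundance. Compared per length of transcript, in TPM (transcript abundance scaled by length and library size), the most abundant was Nap1l4, a histone chaperone gene, at a median of 533 TPM over the 10 lines (412 to 621). It was followed by Commd1, which encodes a COMM domain protein, at 195 TPM (151 to 249), the tetraspanin gene Cd81 at 174 TPM (125 to 201), and Impact, which encodes an inhibitor of the kinase GCN2, at 135 TPM (97.7 to 181). Nap1l4 lay above the other genes in every line, while the ranges of Commd1 and Cd81, and of Cd81 and Impact, overlapped. Snrpn, Copg2, Ube3a, Phlda2, Gnas, Ddc and Mcts2 had medians between 32.3 and 53.2 TPM. The growth factor gene Igf2 was close to silent, at a median of 0.15 TPM (0.03 to 0.93), and so were Osbpl5 and Peg12.

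The 9 genes that were not tested were silent or nearly so in all lines. The transporter gene Slc22a2 and the potassium channel gene Kcnk9 had no read in any of the 10 lines. Slc22a3, Zim1, Calcr, Magel2, Dlk1, Rtl1 and Kcnq1 had between 2 and 7 reads in their highest line. With these genes the Dlk1-Dio3 cluster was represented in the tests by Dio3 alone and the Igf2r-Airn cluster by Igf2r alone.

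In the comparison of Tdg+/- with Tdg+/+ ESCs, no imprinted gene passed the test. Slc38a4, Plagl1 and Nnat were among 7 genes higher in all 3 Tdg+/- lines than in any wild-type line, and 6 genes were lower in all 3. Of the 39 genes, 0 had an adjusted p under 0.05 in edgeR's quasi-likelihood test, against 0.0284% of all genes tested (4 genes, 0.0142% in each direction). An unadjusted p under 0.05 was reached by 13 (16.8% of all genes), of which 8 were higher (9.46%) and 5 lower (7.37%). DESeq2 called 5, all higher in Tdg+/- (Slc38a4, Nnat, Ddc, Plagl1 and Mest), and 5.29% of all genes. For 13 of the 39 genes the lines of the groups did not overlap, against 21.5% of all genes: 7 were higher (12.5%) and 6 lower (9.09%).

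Slc38a4, a paternally expressed transporter of neutral amino acids, had the smallest p. It was at 34.6, 16.8 and 19.9 CPM in the Tdg+/+ lines and at 88.0, 112.5 and 55.1 CPM in the Tdg+/- lines. The lowest Tdg+/- line was thus above the highest wild-type line, and the log2 fold change was 1.84 (standard error, SE, 0.32; adjusted p = 0.0833 in edgeR's test). Of its 5 transcripts the most abundant held 76.5% to 97.1% of the reads in every line, with 1890 to 3710 estimated reads in Tdg+/- and 474 to 1008 in Tdg+/+ lines.

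Nnat encodes neuronatin, a small membrane protein, and lies in an intron of Blcap. It was scarce, with 0.31, 0.65 and 0.31 CPM in Tdg+/+ lines (10 to 24 reads) and 0.93, 3.32 and 2.41 CPM in Tdg+/- lines (31 to 127 reads). The log2 fold change was 2.36 (SE 0.52, adjusted p = 0.104). Blcap, which is transcribed on the other strand, had a log2 fold change of −0.18 (SE 0.15, adjusted p = 0.574).

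Plagl1 encodes a zinc finger transcription factor that regulates other imprinted genes, and its start lies in a maternally methylated region. It was at 3.26, 6.95 and 7.12 CPM in the Tdg+/+ lines and at 13.5, 10.3 and 11.3 CPM in the Tdg+/- lines (log2 fold change 1.01, SE 0.29, adjusted p = 0.159). Mest, a paternally expressed hydrolase gene, was at 23.7, 22.03 and 23.2 CPM against 26.4, 58.4 and 34.7 CPM, and 1 of the 3 Tdg+/- lines stood well above the rest. The lines did not overlap either for Trappc9, Ddc and Zrsr1, which were higher in Tdg+/-, and for Igf2, Ppp1r9a, Ube3a, Cd81, Osbpl5 and Tspan32, which were lower.

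**Figure D1:**
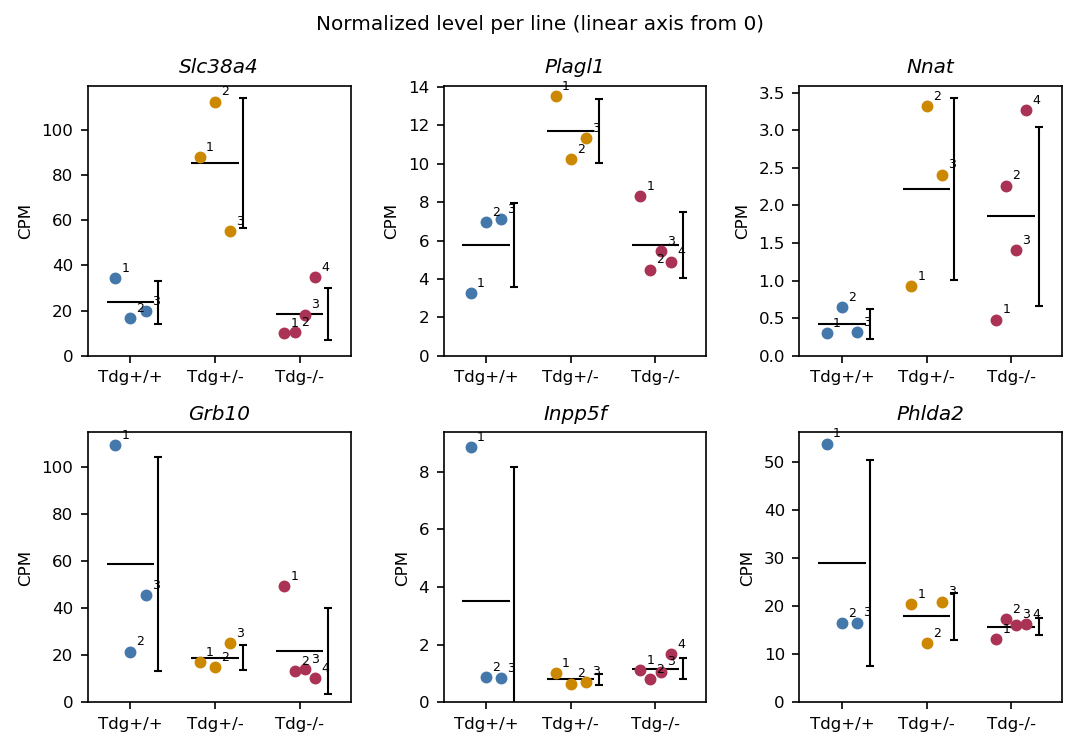
CPM (TMM-normalized, linear axis from 0) of 6 imprinted genes by genotype. Points are lines with their replicate number, horizontal bars are means and error bars are SD (n = 3, 3 and 4 lines). The 3 Tdg+/- lines lie between 55.1 and 112.5 CPM for Slc38a4, above all other lines, while Grb10, Inpp5f and Phlda2 are highest in Tdg+/+ line 1.

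In the comparison of Tdg-/- with Tdg+/- ESCs, Slc38a4 and Plagl1 fell, and they were the only 2 of the 39 imprinted genes that passed the test. Over all genes tested there were 1238 calls (8.78%), of which 5.39% were lower and 3.39% higher in Tdg-/-, so 2 of 39 is near the background. An unadjusted p under 0.05 was reached by 10 imprinted genes (34.9% of all genes), 8 lower (18.7%) and 2 higher (16.3%). Slc38a4 was at 10.2, 10.7, 18.3 and 34.7 CPM in the Tdg-/- lines and fell by 2.21 on the log2 scale (SE 0.41, adjusted p = 0.0259). Plagl1 was at 8.30, 4.496, 5.46 and 4.90 CPM and fell by 1.02 on the log2 scale (SE 0.22, adjusted p = 0.0318). All 4 Tdg-/- lines were below all 3 Tdg+/- lines for both genes. Since this comparison shares its Tdg+/- lines with the one above, the higher level in these lines enters both. Against Tdg+/+, the Tdg-/- lines gave log2 fold changes of −0.33 (SE 0.42) for Slc38a4 and 0.02 (SE 0.30) for Plagl1, and the lines overlapped.

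These calls depended on the lines included. Plagl1 passed the test in only 1 of 7 fits with 1 line left out, the one without Tdg-/- line 1, and Slc38a4 in 3, those without Tdg+/- line 1, Tdg-/- line 1 or Tdg-/- line 4. With an offset for transcript length the adjusted p of Plagl1 was 0.056. Without Tdg-/- line 1, which stood apart, 13 imprinted genes were called, 10 lower and 3 higher, but so were 40.2% of all genes.

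Other imprinted genes lay just short of the threshold between these genotypes. Trappc9, a subunit gene of a vesicle tethering complex, had a log2 fold change of −0.70 (SE 0.21, adjusted p = 0.0603), with 19.8, 11.7, 12.9 and 11.02 CPM in Tdg-/- lines against 19.3, 21.8 and 26.3 CPM in Tdg+/- lines. Only Tdg-/- line 1 overlapped the Tdg+/- lines. The maternally expressed actin nucleator gene Cobl was at 68.2, 48.7, 53.9 and 47.8 CPM against 71.3, 79.5 and 73.8 CPM (log2 fold change −0.45, SE 0.14, adjusted p = 0.0621), so the lines did not overlap. Cobl lies on chromosome 11, whose 1131 tested genes had a median of −0.38 in this comparison, within 1 SE of Cobl. Igf2 went the other way, with 0.94, 2.76, 1.15 and 1.13 CPM in Tdg-/- and 0.36, 0.24 and 0.80 CPM in Tdg+/- lines beside 1.05, 1.16 and 0.88 CPM in Tdg+/+ lines, but this rests on 9 to 100 reads per line (log2 fold change 1.67, SE 0.51, adjusted p = 0.0625). The receptor that clears IGF2, encoded by Igf2r, was at 71.3, 31.5, 39.5 and 36.7 CPM in Tdg-/- and 72.1 to 76.5 CPM in Tdg+/- lines (log2 fold change −0.72, SE 0.24, adjusted p = 0.0773). Tdg-/- line 1 was at the Tdg+/- level and the other three were between 31.5 and 39.5 CPM. In all, 9 imprinted genes had lines that did not overlap, 7 lower (13% of all genes) and 2 higher (11.4%), against 24.5% in both directions.

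In Tdg-/- against Tdg+/+ ESCs, 0 of the 39 imprinted genes passed the test, against 0.0709% of all genes (10 genes, 0.0354% in each direction). An unadjusted p under 0.05 was reached by 11 (15.8% of all genes), 6 higher (9.18%) and 5 lower (6.61%), and DESeq2 called 1, Nnat, and 0.702% of all genes. Nnat was at 0.48, 2.26, 1.41 and 3.27 CPM in the Tdg-/- lines, and Tdg-/- line 1 lay within the wild-type range (log2 fold change 2.14, SE 0.61, adjusted p = 0.297, and 0.16 with 3 surrogate variables). Ppp1r9a encodes the actin-binding protein neurabin. It was at 9.25, 6.57 and 7.12 CPM in Tdg+/+ and 5.46, 4.36, 5.26 and 4.64 CPM in Tdg-/- lines, which did not overlap (log2 fold change −0.61, SE 0.17, adjusted p = 0.297). With an offset for transcript length this difference had the opposite sign, 0.08. Commd1 (log2 fold change 0.47, SE 0.15) and the thyroid hormone deiodinase gene Dio3 (0.75, SE 0.25) had the next smallest p, and Dio3 turned to −0.078 with 3 surrogate variables. Dio3 was at 4.92, 7.70 and 5.18 CPM in Tdg+/+ and 6.94, 12.2, 8.47 and 11.4 CPM in Tdg-/- lines, and the groups overlapped. Lines did not overlap for 6 genes (9.73% of all genes), 1 higher (4.45%) and 5 lower (5.29%). Without Tdg-/- line 1, 11 imprinted genes were called, as were 22% of all genes. Without Tdg+/+ line 1 instead, 0 were called, against 0.0998% of all genes. The 10 genes called among all genes became 6 with the replicate number as a block, and no imprinted gene was called with it.

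A single slope fitted across 0, 1 and 2 functional Tdg alleles gave 0 calls among the 39 genes, against 0.0354% of all genes (0.0284% rising and 0.00709% falling with the alleles), and 0 in every alternative tried, DESeq2 included. An unadjusted p under 0.05 was reached by 13 imprinted genes (14% of all genes), 8 with a positive slope (6.5%) and 5 with a negative one (7.49%). The smallest p belonged to Osbpl5, an oxysterol-binding protein gene, with a slope of 0.59 per allele on the log2 scale (SE 0.19, adjusted p = 0.337), at 10 to 50 reads per line. Its levels were 1.54, 0.70 and 0.60 CPM in Tdg+/+, 0.57, 0.47 and 0.55 CPM in Tdg+/- and 0.48, 0.55, 0.28 and 0.33 CPM in Tdg-/- lines, so that both knockout groups lay below the wild type. The slope was 0.33 without Tdg+/+ line 1 and 0.012 with an offset for transcript length. It was followed by Peg3, a zinc finger gene, at 0.24 per allele (SE 0.08), with 93.1, 101 and 81.6 CPM in Tdg+/+, 85.8, 100 and 90.6 CPM in Tdg+/- and 80.1, 56.3, 55.9 and 75.4 CPM in Tdg-/- lines. Commd1 and Dio3 had slopes of −0.22 and −0.36 per allele, and that of Dio3 was −0.11 with 3 surrogate variables. Slc38a4 and Plagl1 were highest at 1 wild-type allele and therefore had no slope beyond its error, at 0.37 (SE 0.53) and 0.06 (SE 0.24).

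**Figure D2:**
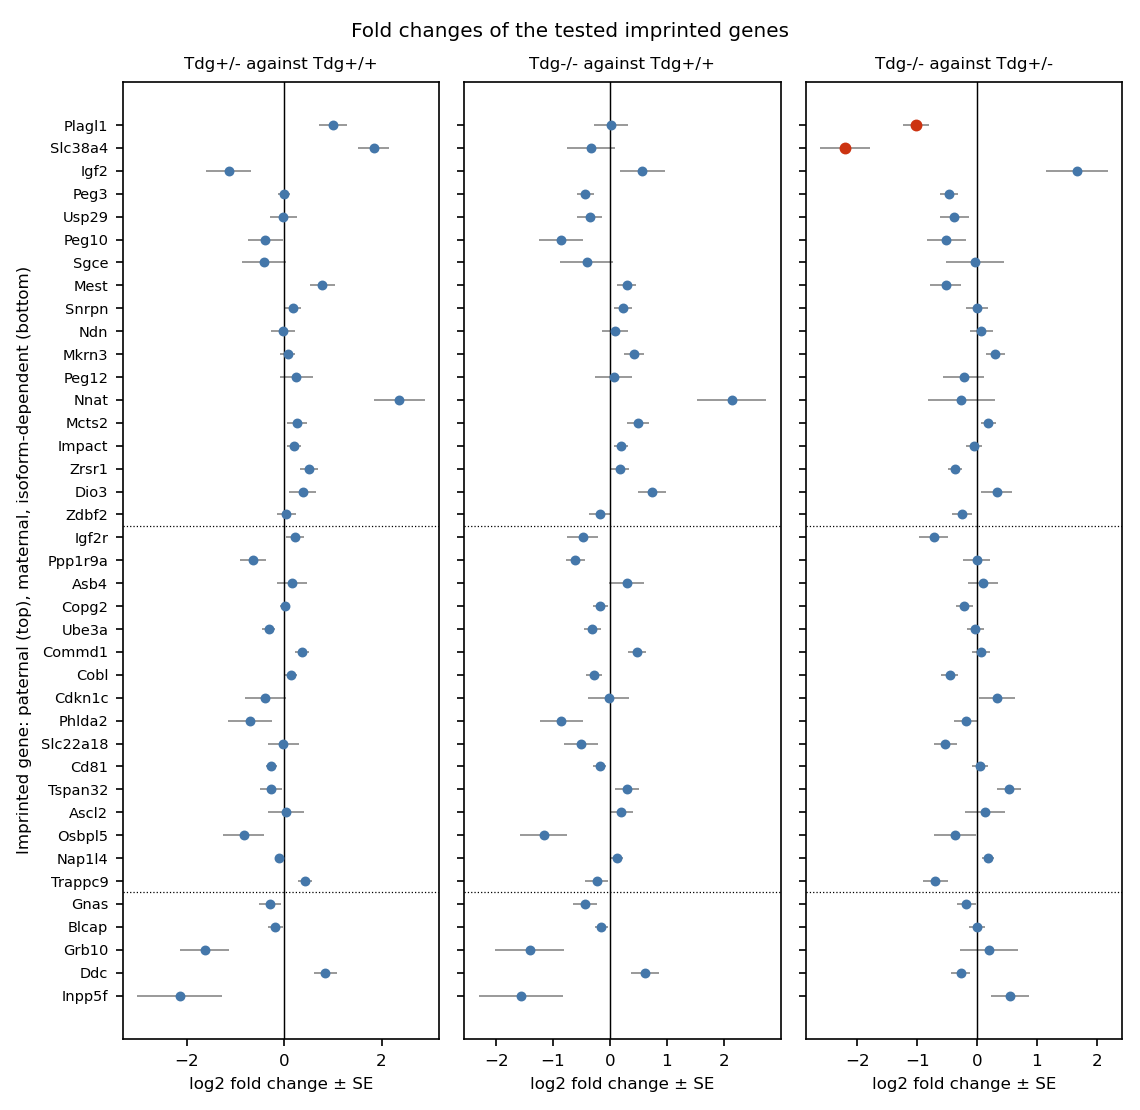
Log2 fold changes with SEs of the 39 tested imprinted genes in 3 comparisons of genotypes, with paternally expressed genes at the top, maternally expressed genes in the middle and isoform-dependent genes at the bottom. Red points mark the 2 genes with an adjusted p under 0.05, Plagl1 and Slc38a4 in Tdg-/- against Tdg+/-.

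Paternally and maternally expressed genes were compared as groups by their medians. For Tdg+/- against Tdg+/+, the 18 paternally expressed genes had a median of 0.20 on the log2 scale and the 16 maternally expressed genes a median of −0.06, beside −0.02 for all genes tested. Unadjusted p values under 0.05 went to 5 higher genes and 1 lower gene of the former and to 2 and 2 of the latter. Of all genes, 9.46% were higher and 7.37% lower at this threshold. Between Tdg-/- and Tdg+/+ lines the medians were 0.13 and −0.21, and for Tdg-/- against Tdg+/- they were −0.24 and −0.02. These differences between the medians were not tested. Medians of all 39 genes were 0.01, −0.15 and −0.05 in the 3 comparisons.

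Of the tested genes, Zrsr1, Commd1, Grb10, Ddc and Cobl lie on chromosome 11. The 1131 tested genes of this chromosome were higher in Tdg+/- than in Tdg+/+ lines by a median of 0.42 on the log2 scale, and the 5 imprinted genes by a median of 0.37. By line, the median deviation of chromosome 11 genes from their median over all lines was 0.20, 0.39 and 0.25 in the Tdg+/- lines and between −0.15 and 0.04 in the other 7. Ddc, which encodes the enzyme that makes dopamine and serotonin from their precursors, was at 15.3, 30.3 and 28.01 CPM in Tdg+/+ lines and 38.5, 50.1 and 44.6 CPM in Tdg+/- lines (log2 fold change 0.85, SE 0.24, adjusted p = 0.159). Zrsr1 is a retrogene for a splicing factor and lies in an intron of Commd1. It was at 17.7, 29.6 and 24.0 CPM in Tdg+/+ and 36.9, 34.3 and 30.9 CPM in Tdg+/- lines, without overlap (0.51, SE 0.19). For Commd1 the values were 85.6, 66.1 and 74.0 against 101, 109 and 82.3 CPM, with overlap (0.37, SE 0.15), and for Cobl 58.0, 73.0 and 71.7 against 71.3, 79.5 and 73.8 CPM (0.14, SE 0.13). Zrsr1 and Commd1 thus lay within 1 SE of the chromosome's median, and Cobl had the opposite sign, −0.02, with an offset for transcript length.

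Grb10 had negative log2 fold changes against Tdg+/+ that did not pass the test, and its lines overlapped in both comparisons. It encodes an adaptor that restrains insulin and IGF receptor signalling, and is transcribed from the maternal allele in most tissues and from the paternal allele in neurons. It was at 109, 21.6 and 45.6 CPM in the Tdg+/+ lines, 17.0, 15.1 and 25.0 CPM in the Tdg+/- lines and 49.4, 13.4, 14.2 and 10.5 CPM in the Tdg-/- lines. The log2 fold change was −1.63 in Tdg+/- against Tdg+/+ (SE 0.51, adjusted p = 0.178) and −1.41 in Tdg-/- against Tdg+/+ (SE 0.60, adjusted p = 0.306). Without Tdg+/+ line 1 they were −0.81 and −0.60. Tdg-/- line 1 was the one Tdg-/- line above the lowest wild-type line, and without it the second was −2.19 (adjusted p = 0.0233 from edgeR). With 3 surrogate variables the second turned to 0.31. Ddc, its neighbour, was lowest in Tdg+/+ line 1, the line in which Grb10 was highest.

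**Figure D3:**
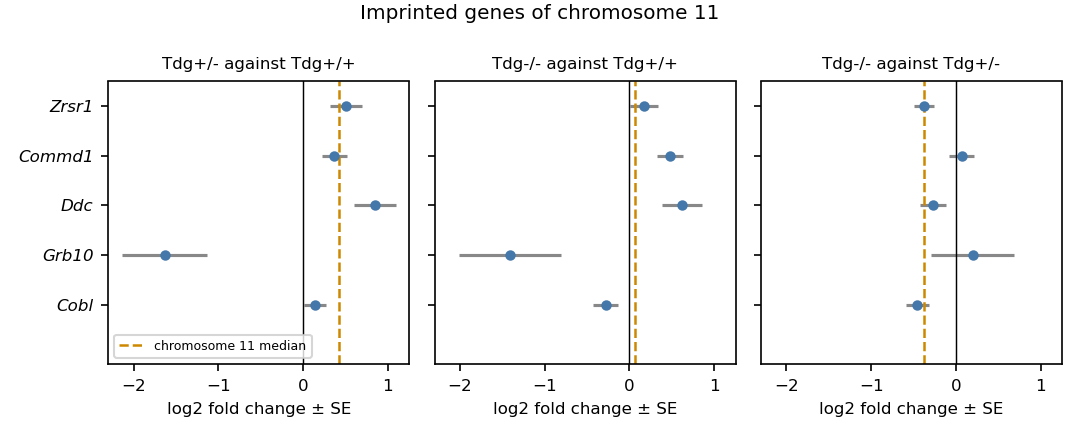
Log2 fold changes with SEs of the 5 imprinted genes of chromosome 11 in 3 comparisons, with the median of all 1131 tested genes of the chromosome as a dashed line. In Tdg+/- against Tdg+/+ that median is 0.42, and Grb10, at −1.63, is the only one of the 5 below 0, although Cobl was at −0.02 with an offset for transcript length.

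The range between lines is given beside that of all genes, without a test of the difference. For 10 of the 39 genes (25.6%) the highest and lowest of the 10 lines differed by more than 4-fold, against 8.47% of all genes tested. The median range was 1.21 on the log2 scale against 0.89, and the median biological coefficient of variation was 0.22 against 0.18. With a minimum of 100 reads instead of 20, the shares were 25% of imprinted genes and 4.25% of all genes. The 10 genes were Inpp5f, Slc38a4, Grb10, Igf2, Nnat, Sgce, Peg10, Osbpl5, Phlda2 and Plagl1. Without Tdg+/+ line 1 there were 6 (15.4%, against 6.48%), and without both this line and Tdg-/- line 1 there were 4, Grb10, Igf2, Nnat and Slc38a4 (10.3%, against 5.69%). At the other end, Nap1l4, Blcap, Impact and Cd81 differed by at most 1.42-fold.

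Tdg+/+ line 1 held much of this spread. It was the highest or lowest line for 19 of the 39 genes (48.7%), highest for 12 and lowest for 7, against 28.8% of all genes. It lay more than 2-fold from the median of the lines for 9 imprinted genes (23.1%) and for 5.46% of all genes. Inpp5f, which encodes an inositol phosphatase and has a paternally expressed short isoform, was at 8.85 CPM in this line and at 0.65 to 1.66 CPM in the other 9. It had 288 reads in this line and 25 to 56 in the others. In this line 225 of them were assigned to 1 transcript, which had at most 22 in any other line. In Tdg+/- against Tdg+/+ the log2 fold change of Inpp5f was −2.15 (SE 0.87, adjusted p = 0.269), and −0.11 without this line. Phlda2, a maternally expressed growth regulator of the placenta, was at 53.9 CPM in the line and at 12.3 to 21.0 CPM in the others, and both of its main transcripts had their highest estimated reads there. Its log2 fold change was −0.85 in Tdg-/- against Tdg+/+ (SE 0.37, adjusted p = 0.31), and −0.053 without this line.

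Several other genes of the Kcnq1 cluster were also highest in Tdg+/+ line 1. Cdkn1c, the gene of the cell cycle inhibitor p57, was at 6.98 CPM there and 2.33 to 5.44 CPM elsewhere. Slc22a18, a transporter gene, was at 8.27 CPM against 2.95 to 5.62 CPM, and Osbpl5 was at 1.54 CPM against 0.28 to 0.70 CPM. Of the 8 tested genes of the cluster, Nap1l4, Tspan32 and Ascl2 were not highest in this line, and Cd81, with 281 CPM against 198 to 274 CPM, exceeded the others only slightly. Tdg+/- line 2 was also often at the extreme, for 17 imprinted genes (43.6%) against 22.1% of all genes. Ascl2, a transcription factor gene of the trophoblast lineage, was lowest there, at 1.202 CPM against 2.20 to 3.57 CPM in the other lines.

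**Figure D4:**
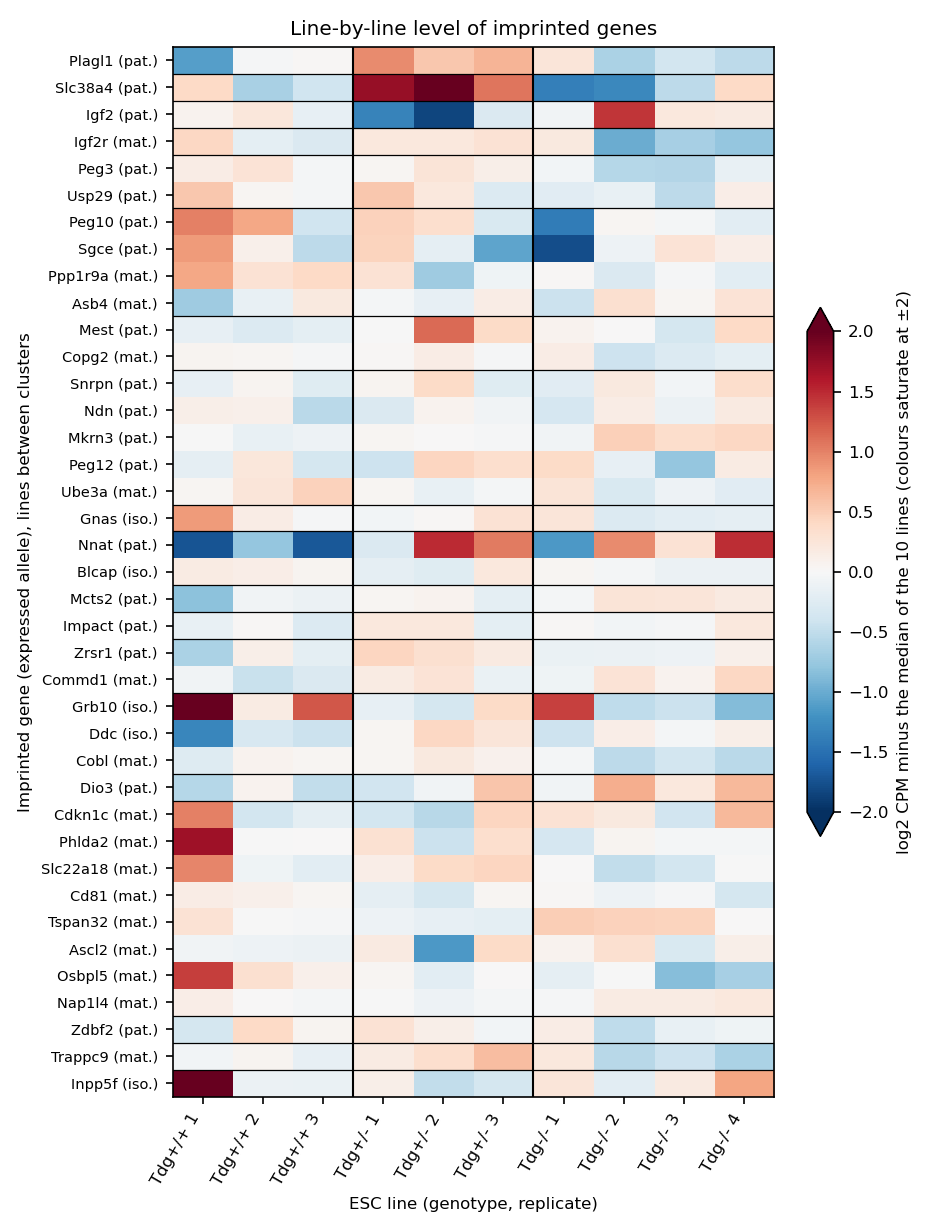
Level of each of the 39 tested imprinted genes in each of the 10 lines, as log2 CPM minus the median of the gene over the lines. Red is above and blue below that median, colours saturate at a difference of 2, horizontal lines separate clusters and vertical lines separate genotypes, and the letters after a symbol give the expressed allele (pat., mat. or iso. for isoform-dependent). Tdg+/+ line 1 is the highest line for 12 genes and the lowest for 7.

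Whether neighbours in an imprinted cluster varied together across the lines was examined in 17 pairs, of which both genes were tested in 12, and 1 pair passed. Peg10, a gene derived from a retrotransposon, and Sgce, the gene of epsilon-sarcoglycan, are paternally expressed and start next to each other. Peg10 was at 11.7, 9.97 and 4.42 CPM in Tdg+/+, 8.02, 7.397 and 4.72 CPM in Tdg+/- and 2.17, 5.99, 5.66 and 4.99 CPM in Tdg-/- lines. Sgce followed at 4.24, 2.49 and 1.60 CPM, 3.17, 2.04 and 1.09 CPM, and 0.63, 2.15, 2.81 and 2.56 CPM. Both were highest in Tdg+/+ line 1 and lowest in Tdg-/- line 1, and their log2 CPM correlated with Pearson's r = 0.87 (permutation p = 0.00135, adjusted p = 0.0162 over the 12 pairs) and Spearman's rho = 0.76 (permutation p = 0.0149, adjusted p = 0.179). Without these 2 lines, the farthest from the median of Peg10, r was 0.56, so r on log2 CPM rested in part on them. As deviations from the genotype means, r was 0.92 (permutation adjusted p = 0.0138) and rho 0.79 (permutation adjusted p = 0.111). On that scale r was 0.84 without the 2 farthest lines, there Tdg+/+ line 3 and Tdg-/- line 1.

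The other 11 pairs had no adjusted p under 0.05. Pearson's r was 0.64 for Cdkn1c and Phlda2 (adjusted p = 0.138 by permutation), 0.67 for Phlda2 and Slc22a18 (adjusted p = 0.142 by permutation), with Spearman's rho of 0.52 and 0.31 (adjusted p = 0.27 and 0.544). Without the 2 farthest lines, Tdg+/+ line 1 among them, r was 0.28 for Cdkn1c and Phlda2. Snrpn, a splicing protein gene expressed from the paternal allele, and Ube3a, a ubiquitin ligase gene whose paternal allele is silenced in neurons, gave r = −0.67 and rho = −0.66 (adjusted p = 0.138 and 0.241 by permutation). On log2 TPM, 3 pairs passed: Peg10 with Sgce, Peg3 with Usp29 and Cdkn1c with Phlda2.

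Genes that keep imprints were measured beside their targets. All 20 genes of a list of imprint maintenance and DNA methylation were tested. Zfp57 was at 152 to 205 CPM and Zfp445 at 71.2 to 91.6 CPM over the 10 lines, with log2 fold changes between −0.16 and 0.20 in the 3 comparisons of genotypes and no call. Of the 20, 0 were called by edgeR in Tdg+/- or in Tdg-/- against Tdg+/+, with 1 and 4 at an unadjusted p under 0.05 (16.8% and 15.8% of all genes). In the latter, Tet1, a dioxygenase that starts DNA demethylation, had the smallest p in the list (log2 fold change −0.41, SE 0.12, adjusted p = 0.297). Between Tdg-/- and Tdg+/- lines, 1 of the 20 was called higher and 1 lower, against 3.39% and 5.39% of all genes. Dnmt3l, a cofactor of the de novo methyltransferases, rose by 1.08 on the log2 scale (SE 0.27, adjusted p = 0.0441 from edgeR). It was at 72.7, 115, 101 and 96.1 CPM in Tdg-/-, 27.8, 41.1 and 67.2 CPM in Tdg+/- and 45.3, 81.7 and 74.4 CPM in Tdg+/+ lines. Arid4a, a chromatin protein gene, fell by 0.67 on the log2 scale (SE 0.16, adjusted p = 0.0391). The other 18 did not pass, among them Dppa3, whose product protects methylation in the zygote (−0.90, SE 0.25, adjusted p = 0.0509).

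Of 21 further imprinted protein-coding genes outside the 48, 14 were tested. Between Tdg-/- and Tdg+/- lines, 1 of the 14 was called lower, against 5.39% of all genes, and 0 higher, against 3.39%. Atp10a, a lipid flippase gene of the Snrpn-Ube3a region, fell by 1.03 on the log2 scale (SE 0.22, adjusted p = 0.0313 from edgeR), on 48 to 165 reads per line. Against Tdg+/+, 0 of the 14 passed in Tdg-/- lines, 5 had an unadjusted p under 0.05, all of them lower (6.61% of all genes), and the smallest p belonged to the signalling adaptor gene Gab1 (log2 fold change −0.41, SE 0.12) and to Herc3 (−0.39, SE 0.13), both with an adjusted p of 0.297. The calls of Dnmt3l, Arid4a and Atp10a also depended on the lines, with 0 to 16 calls in these lists when 1 line was left out, 16 without Tdg-/- line 1, where 40.2% of all genes were called. Imprinted noncoding RNAs such as H19, Meg3, Airn and Kcnq1ot1 were not analysed here.

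Some of the levels above are uncertain because imprinted genes often overlap. The strand setting of the quantification is not given in the sources used here, so reads of Igf2r, Ube3a, Nnat with Blcap, and Gnas may include those of transcripts on the opposite strand. Mcts2 and Zrsr1 are retrogenes whose parents, Mcts1 and Zrsr2, may share reads with them. Sums per gene also hide the isoform on which imprinting depends: the most abundant of 22 Gnas transcripts held 22.1% to 47.3% of its reads by line, and the most abundant of 9 Grb10 transcripts 41.5% to 99.6%.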

How the data were processed

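RNA from 10 mouse ESC lines (3 Tdg+/+, 3 Tdg+/-, 4 Tdg-/-, 1 library each) was used, grouped by the submitters' genotype labels. The authors made stranded, ribosome-depleted total RNA libraries and quantified single-end reads with Salmon 0.8.1 on GRCm39 transcripts. The authors deposited estimated counts, not normalized, and TPM, scaled by effective transcript length, for 116357 transcripts. The other settings of Salmon are not given in the sources used here.

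The estimated counts of the transcripts of a gene were added up and rounded to whole numbers. Identifiers were paired with genes through GENCODE annotation of the earlier build GRCm38 (98.97% of transcripts), used for names and chromosomes only. Unpaired transcripts (0.472% to 0.499% of reads) were left out. Genes that reached 20 reads in 1 or more of the lines were tested with edgeR 4.0.16 (TMM, quasi-likelihood) in R 4.3.3, in the lines of each comparison, with Benjamini-Hochberg adjustment over all 14105 genes and a threshold of 0.05. The SE was obtained as the absolute log2 fold change over the square root of the F statistic. The log2 CPM used a prior count of 2. Correlations used 100000 permutations (two-sided). Alternatives were DESeq2 1.42.0, 3 surrogate variables (sva 3.50.0), other scaling and filters, an offset for transcript length, all lines in 1 fit, a replicate block and leaving out lines. Leaving out both outlying lines, done for the range between lines only, was chosen after seeing the data. Same-numbered Tdg+/+ and Tdg-/- lines deviated together from their group means (r = 0.136 to 0.167 over genes). Different-numbered lines of these genotypes ran from −0.156 to 0.0575, but Tdg+/- line 2 and Tdg-/- line 4 reached 0.255. These values therefore do not establish a pairing, and the labels state none. Same-numbered lines of the other comparisons did not all deviate together (−0.0892 to 0.104).

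Members and gene lists were chosen with earlier results of these data known. Every gene with an adjusted p under 0.05, a range over 4-fold or a place on chromosome 11, and the 4 with the smallest p in each fit, are described.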

Additional observations from a re-analysis of the deposited data

Results flagged for a closer look

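In the 4 Tdg-/- lines, the gap between the farthest line and its nearest neighbour, divided by the range of the group, exceeded Dixon's 95% critical value of 0.83 for 5 of the 39 tested imprinted genes (12.8%) and for 9.76% of all 14105 genes tested, where chance gives about 1 in 20. The share of the imprinted genes is near that of all genes. Tdg-/- line 1 was the farthest for Grb10 (0.90), at 49.4 CPM against 10.5 to 14.2 CPM, and for Gnas (0.85), at 28.1 CPM against 19.7 to 21.0 CPM. Igf2 (0.88) was highest in Tdg-/- line 2, with 2.76 CPM against 0.94 to 1.15 CPM. In Tdg-/- line 4, Tspan32 (0.90) was lowest, at 2.08 CPM against 2.84 to 2.93 CPM, and Zrsr1 (0.83, just past the critical value) was highest, at 29.3 CPM against 24.8 to 25.6 CPM.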

How the results depend on the processing

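In Tdg+/- against Tdg+/+, the 0 imprinted genes called became 2 without a filter on low counts (1.18% of all genes), 5 with DESeq2 (5.29%) and 18 with 3 surrogate variables (26.2%), and 0 to 1 with 1 line left out (1 without Tdg+/- line 1, 1.33%). In Tdg-/- against Tdg+/+, the 0 called became 1 with DESeq2 (0.702%) and 0 to 11 with 1 line left out (11 without Tdg-/- line 1, 22%). In Tdg-/- against Tdg+/-, the 2 called became 4 without a filter (6.66%), 8 with DESeq2 (23.6%), 1 with the length offset (3.29%), 11 with 3 surrogate variables (40.7%), 4 with all 10 lines in 1 fit (13%) and 0 to 13 with 1 line left out (13 without Tdg-/- line 1, 40.2%). Lines share only a number in this comparison, and with the replicate block 0 were called (adjusted p = 0.102 for Slc38a4 and 0.148 for Plagl1 from edgeR). The block called 0 imprinted genes in the other comparisons too. Not every line correlated best with its own number. Genes with a range over 4-fold numbered 6 to 10 with 1 line left out and 4 without both outlying lines, and 3 pairs passed on log2 TPM. The causes were not tested.

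The sign changed for Cobl (−0.023) and Ppp1r9a (0.077) with the length offset in Tdg+/- and Tdg-/- against Tdg+/+, and with 3 surrogate variables for Dio3 (−0.078) and Grb10 (0.31) in Tdg-/- against Tdg+/+. With 1 line left out, Phlda2 ran from −0.98 to 0.11 in Tdg+/- against Tdg+/+, changing sign without Tdg+/+ line 1. In Tdg-/- against Tdg+/+, Slc38a4 ran from −0.84 to 0.036, Plagl1 from −0.26 to 0.20 and Inpp5f from −2.05 to 0.46. All of these changed sign without Tdg+/+ line 1, where Slc38a4 was at 0.036, Plagl1 at −0.26 and Inpp5f at 0.46. Plagl1 also changed sign without Tdg-/- line 1 (−0.20). With 3 surrogate variables 6 lines leave 1 residual degree of freedom. Genes with few reads, such as Nnat, Igf2 and Osbpl5, are limited by depth.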
